A study of Homo sapiens with 24 samples.

Results

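The genes described here are chaperones, folding enzymes and stress sensors of the endoplasmic reticulum (ER), together with cytosolic and mitochondrial heat shock proteins. They are the members of a fixed list of unfolded protein response and heat shock genes that a probe set of their own measures. Of the 35 listed genes 34 were measured, among 18417 genes on the array. The protein disulfide isomerase gene PDIA3 was left out because its 2 probe sets also carry a second gene symbol. By role the 34 genes are 14 ER chaperones and folding enzymes, 4 genes of ER import and degradation, 4 sensors or transcription factors of the unfolded protein response, 9 cytosolic chaperones, the 2 mitochondrial chaperonin genes and the heat shock factor HSF1.

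The cells were THP-1, a human monocytic leukaemia line, and total RNA was measured on 24 Affymetrix arrays, 4 in each of 6 groups. All 3 lines were made with the lentiviral vector pSLIK_Neo at low copy and selected with G418, so the controls carry the vector and its selection too. The vector line holds the cassette alone, and the NLRP4 and NOD1 lines hold a 3X FLAG-tagged NLRP4 or NOD1 coding sequence behind a tetracycline-inducible promoter. Each line was measured without doxycycline (DOX) and after 6 h of DOX at 1 µg/ml, with 50000 cells seeded per well. As far as the labels say, each line is a single transduced and selected population, and nothing says that the 4 wells of a group were separate cultures. The p-values therefore measure the spread between wells, which may be technical. The wells were placed in a pre-assigned order that was not randomized, so line and place in that order cannot be told apart.

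Secretory and membrane proteins fold in the ER with the help of Hsp70, Hsp90, J-domain and lectin chaperones and of disulfide isomerases. When unfolded proteins build up there, the sensors encoded by ERN1 (IRE1), EIF2AK3 (PERK) and ATF6 drive transcription of these chaperones, in part through ER stress elements in their promoters. The cytosol has its own relatives of the same families, which the heat shock factor HSF1 induces through a different element when cytosolic proteins misfold. Comparing the ER with the cytosolic genes thus sets apart 2 branches of protein quality control that share protein families.

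The labels were checked on the introduced genes. In its own line DOX raised the log2 signal of NOD1 from 8.74 ± 0.19 (SD, n = 4) to 12.75 ± 0.18, beside 8.33 ± 0.19 for the vector line without DOX. For NLRP4 the rise was from 8.09 ± 0.43 to 11.93 ± 0.26, beside 6.92 ± 0.33. Pairs of arrays within a group had correlations of 0.9818 to 0.9934 over genes. Pairs from different groups had 0.9549 to 0.9935, so these ranges overlapped. The deposited array medians ran from 8.06 to 8.85, and the values below were quantile-normalized. Of 20 monocytic marker genes 17 were measured, with a median level at percentile 71.9 of all genes. Without DOX 12 of them were higher and 3 lower in the NOD1 than in the vector line. The limit was a limma adjusted p under 0.05 over all genes, which 13% of all genes passed as higher and 11.9% as lower. The lowest p belonged to CD68 at 1.19 and AZU1 at 0.87, which were higher, and TLR4 at −1.12 and CD36 at −0.68, which were lower. Summed on the linear scale, the signal of the 17 markers per uninduced array was 76390 to 79311 for NOD1. It was 56688 to 60331 for the vector and 62262 to 65134 for NLRP4. Such a sum is led by the brightest genes, here CTSG and LYZ with mean log2 signals of 14.87 and 13.58. The part of these markers in the results below was not tested. In bulk RNA fewer cells of a type and less RNA per cell cannot be told apart.

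Differences in these genes were found between the NOD1 line and each of the other lines, without and with DOX. Of the 34, 9 were higher in all 4 such comparisons, as were 7.48% of all genes, while 7 were called in none. In the uninduced NOD1 line 12 of the 34 genes were higher and 3 lower than in the uninduced vector line, at a limma adjusted p under 0.05 over all genes. That is 44.1% of them, against 24.9% of all genes called in this comparison, 13% higher and 11.9% lower. The highest change belonged to HYOU1, an Hsp70-like ER chaperone that acts as a nucleotide exchange factor for BiP, with 2.34-fold more signal in the NOD1 line. Higher as well were the ER genes HERPUD1, P4HB, MANF, CRELD2, PDIA4, SEC61B, HSPA5 and XBP1, the cytosolic chaperones DNAJB1 and HSPB1, and HSF1. Lower were CANX, EIF2AK3 and the cytosolic CHORDC1. The median change over the 34 genes was 0.14 on the log2 scale, against 0.03 over all genes. With the values as deposited 13 were higher and 1 lower, and with arrays centred on their medians 7 were higher and 2 lower, with member medians of 0.15 and 0.03 beside all-gene medians of 0.07 and −0.06. These are 41.2% and 26.5% of the 34, against 20.9% and 20.8% of all genes. Centring turned the balance of all genes too, to 7.59% higher and 13.2% lower. The share of the 34 called in either direction then lay near that of all genes. By direction they differed, since more of the 34 were higher than lower while more of all genes were lower than higher.

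With DOX in both lines, 14 of the 34 genes were higher and 5 lower in the NOD1 than in the vector line, 55.9% against 25.8% of all genes, of which 13.6% were higher and 12.2% lower. With the values as deposited these counts were 10 higher and 2 lower, 35.3% against 20.4% of all genes. With centred arrays they were 10 higher and 1 lower, 32.4% against 22.1%. The uninduced and the DOX-treated comparison share no arrays. The sign of the change was the same in both for 33 of the 34 genes, and 14 were called in both in the same direction. No share of all genes is given beside these 2 counts, so they are not read as particular to the set. HSF1 was called without DOX and not with it. PDIA6, CALR, SEL1L, HSP90AA1 and DNAJA1 were called with DOX and not without it. None of these differences between the comparisons passed a test, since 0 of the 34 genes had a DOX effect that differed between the NOD1 and vector lines in limma. At an unadjusted p under 0.05 stood 1 of the 34, beside 4.05% of all genes.

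Against the NLRP4 line, 15 genes were higher and 4 lower in the NOD1 line without DOX, 55.9% against 27% of all genes (14.1% higher and 12.8% lower). With DOX 15 were higher and 3 lower, 52.9% against 25.4% (13.4% higher and 12% lower). In the values as deposited 14 were higher and 2 lower without DOX, beside 14.8% and 9.78% of all genes, and 13 and 0 with DOX, beside 8.27% and 20%. With centred arrays 10 were higher and 6 lower without DOX, beside 7.7% and 15.1% of all genes, and 17 and 0 with DOX, beside 14.2% and 9.57%. These comparisons share their NOD1 arrays with those against the vector line. In all 4 of them 9 genes were higher, namely HSPA5, HYOU1, MANF, CRELD2, PDIA4, P4HB, HERPUD1, DNAJB1 and HSPB1, and 7.48% of all genes were. CANX alone was lower in all 4, and 8.06% of all genes were. Another 17 genes were called in 1 to 3 of the 4. The remaining 7, HSP90B1, DNAJB11, EDEM1, ATF6, HSPH1, HSP90AB1 and HSPD1, were called in none. No share of all genes is given beside the 17 and the 7, so these 2 counts are not read as particular to the set.

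**Figure D1:**
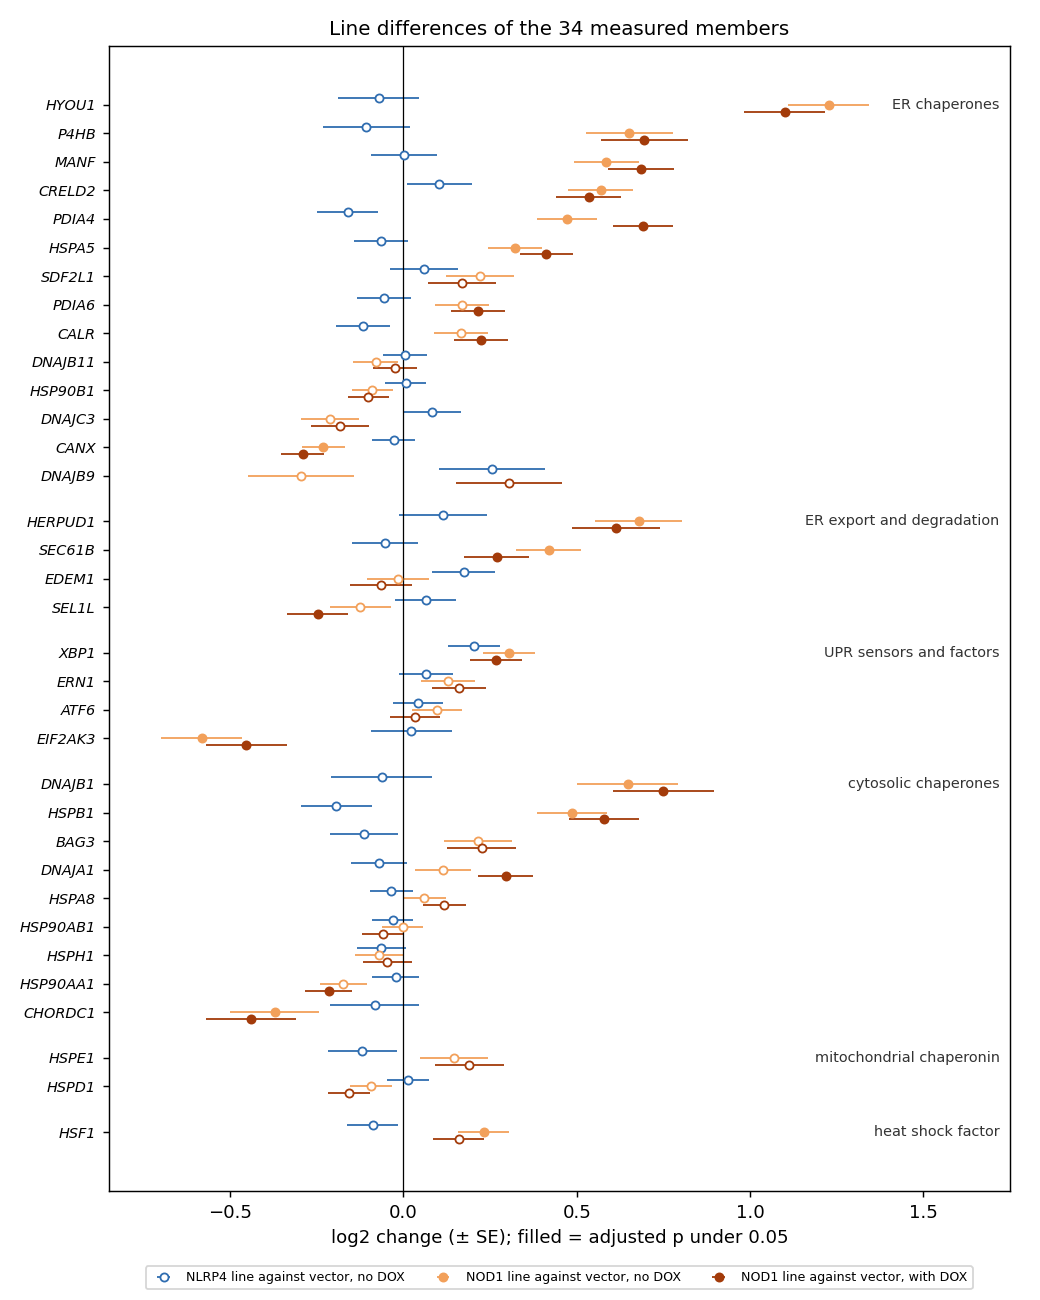
Log2 change (x axis, ± SE from the limma fit) of each of the 34 measured genes against the vector line, for the uninduced NLRP4 line, the uninduced NOD1 line and the DOX-treated NOD1 line, grouped by role, with filled points called at an adjusted p under 0.05. HYOU1 stands farthest to the right at 1.23 and 1.10, EIF2AK3 farthest to the left at −0.58 and −0.45, and no NLRP4 point is filled.

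Promoters were examined because several of these genes are textbook carriers of ER stress elements. The sequences are RefSeq windows of build GRCh38.p14, from 250 bases before to 50 bases after each annotated start. Of the 34 genes 33 had at least 1 window, 45 in all; HSF1 had none. On both strands 6 motifs were sought that bear on these pathways, and a match is a match of letters only. The ER stress element, CCAAT and CCACG with 9 free bases between them, occurred in windows of 7 of the 33 genes, while 0.0916% of the 27305 genes with windows hold it. The second form, ATTGG and CCACG with 1 free base between them, occurred in 3 of 33, against 0.0696% of genes. The heat shock element, GAA, TTC and GAA with 2 free bases between each, occurred in 6 of 33, against 0.608%, and all 6 are cytosolic or mitochondrial genes. The core of the XBP1-bound element, TGACGTGG, occurred in 1, HYOU1, against 0.927% of genes. The element bound by ATF4 and CHOP dimers, TTGCATCA, occurred in 1, HERPUD1, against 1.08%, and the short CCACG part of the ER stress elements in 24 of 33, against 42.1%.

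Shown are the gene with the highest change, BiP, an ER gene that did not pass and a cytosolic gene that was lower, each as its window of 300 bases, 5′ to 3′ on the strand of the gene, with the ER stress or heat shock elements in capitals. They are chr11:119057156-119057455 on the minus strand for HYOU1, chr9:125241294-125241593 on the minus strand for HSPA5, chr12:103930160-103930459 on the plus strand for HSP90B1 and chr11:90223000-90223299 on the minus strand for CHORDC1.
HYOU1: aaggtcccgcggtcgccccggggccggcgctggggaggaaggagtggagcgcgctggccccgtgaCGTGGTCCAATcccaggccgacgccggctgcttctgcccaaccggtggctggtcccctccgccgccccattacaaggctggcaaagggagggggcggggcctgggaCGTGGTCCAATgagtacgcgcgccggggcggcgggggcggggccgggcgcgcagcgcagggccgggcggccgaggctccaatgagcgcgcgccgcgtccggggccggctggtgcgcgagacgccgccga
HSPA5: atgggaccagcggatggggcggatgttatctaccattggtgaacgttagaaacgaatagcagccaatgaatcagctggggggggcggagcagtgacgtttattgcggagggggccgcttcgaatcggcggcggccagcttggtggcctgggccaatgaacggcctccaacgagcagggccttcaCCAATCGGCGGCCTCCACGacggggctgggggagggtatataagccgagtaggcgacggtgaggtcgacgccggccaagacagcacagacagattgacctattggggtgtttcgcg
HSP90B1: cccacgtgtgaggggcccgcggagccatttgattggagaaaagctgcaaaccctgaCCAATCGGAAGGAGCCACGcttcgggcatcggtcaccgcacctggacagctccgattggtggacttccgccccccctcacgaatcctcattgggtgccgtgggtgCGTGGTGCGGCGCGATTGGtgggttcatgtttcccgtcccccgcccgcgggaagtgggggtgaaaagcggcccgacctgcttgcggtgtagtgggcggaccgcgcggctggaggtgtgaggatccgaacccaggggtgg
CHORDC1: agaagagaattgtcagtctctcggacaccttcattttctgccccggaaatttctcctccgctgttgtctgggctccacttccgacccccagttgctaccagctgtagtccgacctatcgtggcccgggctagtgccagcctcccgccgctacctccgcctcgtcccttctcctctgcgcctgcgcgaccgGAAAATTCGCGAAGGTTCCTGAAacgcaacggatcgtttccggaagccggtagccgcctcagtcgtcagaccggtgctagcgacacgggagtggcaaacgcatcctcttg
HYOU1 has 2 copies of the second form, both read on the opposite strand, at 185 to 175 and 79 to 69 bases before the start, and the former overlaps the TGACGTGG match. HSPA5 has 1 exact ER stress element at 66 to 48 bases before the start. HSP90B1 has 2, at 194 to 176 and at 89 to 71 bases, the latter on the opposite strand. CHORDC1 has 3 overlapping heat shock matches between 60 and 38 bases before the start.

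Of the 10 genes with either form of ER stress element, HSPA5, HYOU1, CRELD2, HERPUD1 and XBP1 were higher in the uninduced NOD1 than in the vector line, CANX was lower, and HSP90B1, SDF2L1, PDIA6 and CALR were not called. Of the 23 genes without it 6 were higher, 2 lower and 15 not called. With DOX the counts were 7 higher and 1 lower of 10, and 7 higher and 4 lower of 23. Of all genes 13% were higher and 11.9% lower without DOX, and 13.6% and 12.2% with DOX. Of the 6 genes with a heat shock element (HSPA8, HSP90AA1, HSP90AB1, DNAJA1, CHORDC1 and HSPD1) 0 were higher without DOX and CHORDC1 was lower. With DOX 1 of the 6, DNAJA1, was higher and 2, HSP90AA1 and CHORDC1, were lower. With only 6 genes these counts cannot be set apart from the shares of all genes. The cytosolic genes that were higher without DOX, DNAJB1 and HSPB1, had no exact match in these windows, which says only that these letters are not there. The genes with ER stress elements therefore fell on both sides: HSP90B1, with 2, did not pass, and HYOU1, with 2 of the other form, changed the most. HSP90B1 is also far brighter, at percentile 99.9 of all genes, and the part of signal compression was not tested.

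HYOU1, with the second form of the ER stress element 2 times in its window, was the gene with the lowest p in the set. Its log2 signal was 10.49, 10.31, 10.16 and 10.07 on the 4 uninduced vector arrays and 11.58, 11.81, 11.15 and 11.40 on the 4 uninduced NOD1 arrays. With DOX it was 10.15, 10.20, 10.22 and 10.25 on the vector arrays and 11.27, 11.23, 11.36 and 11.36 on the NOD1 arrays. The NLRP4 line gave 10.13, 10.21, 10.11 and 10.30 without DOX and 10.58, 10.17, 10.12 and 10.13 with it. All 8 NOD1-line arrays lay above all 16 others, and the NLRP4 arrays fell among the vector arrays apart from 1 DOX array at 10.58. The change against the vector line was 1.23 without DOX (SE 0.117, limma adjusted p = 5.96e-08) and 1.10 with it (SE 0.117, adjusted p = 2.6e-07).

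HSPA5 encodes BiP, the ER Hsp70 that HYOU1 serves and that also holds the sensors inactive. It measured 13.58, 13.39, 13.34 and 13.26 on the uninduced vector arrays and 13.69, 13.76, 13.63 and 13.77 on the uninduced NOD1 arrays. With DOX the vector arrays gave 13.36, 13.23, 13.30 and 13.24 and the NOD1 arrays 13.68, 13.62, 13.70 and 13.78. In the NLRP4 line the values were 13.33, 13.27, 13.29 and 13.42 without DOX and 13.30, 13.37, 13.07 and 13.20 with it. The NOD1 arrays were the highest 8 of the 24, although the nearest vector array, at 13.58, was only just below them. The change was small, 1.25-fold without DOX (log2 0.32, SE 0.0775, adjusted p = 0.00283) and 1.33-fold with it (0.41, adjusted p = 0.000254). With arrays centred on their medians HSPA5 was not called in either comparison of the uninduced NOD1 line.

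The Hsp90 of the ER, GRP94, encoded by HSP90B1, did not pass the test in any comparison. It was 15.00, 14.97, 14.97 and 15.00 on the uninduced vector arrays and 14.97, 14.78, 14.96 and 14.87 on the uninduced NOD1 arrays, a change of −0.09 (SE 0.0585, adjusted p = 0.306). The J-domain partner of BiP encoded by DNAJB11 was 13.97, 13.90, 13.93 and 14.08 on the uninduced vector arrays and 13.96, 13.88, 13.81 and 13.92 on the uninduced NOD1 arrays, overlapping at −0.08 (adjusted p = 0.422). DNAJC3, a J-domain protein that also restrains PERK, was at −0.21 (adjusted p = 0.0712) against the vector line and lower at −0.29 (adjusted p = 0.01) against the uninduced NLRP4 line. SDF2L1, which works with DNAJB11, was at 0.22 (adjusted p = 0.108) against the vector line. It passed in the DOX-treated NOD1 line against the DOX-treated NLRP4 line, at 0.27 (adjusted p = 0.0463), a call lost in 9 of 16 alternative fits. The members of the BiP machinery therefore ranged from a 2.34-fold difference in HYOU1 to none that passed in HSP90B1 and DNAJB11. In mean signal HSP90B1 and DNAJB11 stood at percentiles 99.9 and 99.1 of all genes and HYOU1 at 82.1. The part of signal compression in this range was not tested.

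MANF and CRELD2 are small, secretable ER proteins known as stress-induced partners of the folding machinery, and both separated the lines fully. MANF was 12.44, 12.01, 12.01 and 12.01 on the uninduced vector arrays and 12.65, 12.84, 12.60 and 12.72 on the uninduced NOD1 arrays. Its change was 0.59 without DOX (SE 0.095, adjusted p = 5.31e-05) and 0.69 with DOX (adjusted p = 7.42e-06), where the vector arrays lay at 11.93 to 12.01 and the NOD1 arrays at 12.47 to 12.78. Across the 6 groups the 8 NOD1-line arrays were the highest, and the nearest other array was the vector array at 12.44. CRELD2 was 8.997, 9.47, 9.31 and 9.23 on the uninduced vector arrays and 9.66, 9.84, 9.79 and 10.00 on the uninduced NOD1 arrays, a change of 0.57 (SE 0.0936, adjusted p = 6.29e-05). With DOX its change was 0.53 (adjusted p = 0.000119), and the 4 NOD1 arrays lay within 9.78 and 9.81, a tighter set than the vector arrays at 9.13 to 9.44.

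Of the disulfide isomerases, PDIA4 (ERp72) and P4HB (PDI itself) were higher in the NOD1 line. PDIA4 was 12.02, 11.84, 11.98 and 11.93 on the uninduced vector arrays and 12.35, 12.59, 12.20 and 12.52 on the uninduced NOD1 arrays, with a change of 0.47 (SE 0.0866, adjusted p = 0.000212). With DOX its change was 0.69 (adjusted p = 2.19e-06). The NOD1 and vector arrays did not overlap in either condition, and without DOX PDIA4 was not called once the arrays were centred. P4HB was 12.68, 12.20, 12.08 and 12.26 on the uninduced vector arrays and 12.97, 13.19, 12.66 and 13.01 on the uninduced NOD1 arrays. The lowest NOD1 array, at 12.66, fell just under the highest vector array, so these groups overlapped by 1 array, while with DOX the ranges of 12.21 to 12.32 and 12.81 to 13.04 were apart. Its change was 0.65 (SE 0.126, adjusted p = 0.000363) and 0.69 with DOX (adjusted p = 0.000168). P4HB has a second probe set, fitted beside the first, which gave 0.59 (adjusted p = 0.000186) without DOX.

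PDIA6, a further isomerase, was at 0.17 (adjusted p = 0.12) without DOX and passed with DOX at 0.22 (adjusted p = 0.0424), a call lost in 9 of 16 alternative fits. It was also called higher against the uninduced NLRP4 line, a call lost in 10 of 16. The lectin chaperones calreticulin (CALR) and calnexin (CANX), which hold glycoproteins during folding, differed in direction with DOX. CALR was at 0.17 (adjusted p = 0.133) without DOX and higher at 0.22 with DOX (adjusted p = 0.0351), a call lost in 9 of 16 alternative fits. Against the NLRP4 line CALR was called higher without and with DOX, each call lost in 3 of 16. CANX measured 14.43, 14.45, 14.46 and 14.40 on the uninduced vector arrays and 14.31, 14.08, 14.27 and 14.15 on the uninduced NOD1 arrays. Every NOD1 array was below every vector array, with a change of −0.23 (SE 0.062, adjusted p = 0.00717) and −0.29 with DOX (adjusted p = 0.000956). The lower CANX depends on the scaling: it was called in none of the 4 comparisons in the values as deposited or with centred arrays, and under the latter it turned to 0.14 (adjusted p = 0.553) against the DOX-treated NLRP4 line. Both uninduced calls were also lost without the 4 dimmest arrays and with only the arrays compared. The call against the uninduced NLRP4 line was also lost without uninduced NOD1 array 2.

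DNAJB9 (ERdj4), a J-domain protein and known target of XBP1, was the 1 gene whose sign differed between the uninduced and DOX-treated comparisons with the vector line. It was 9.14, 9.43, 9.45 and 9.49 on the uninduced vector arrays and 8.89, 9.46, 8.94 and 9.03 on the uninduced NOD1 arrays. In the NOD1 line with DOX it was 9.70, 9.49, 9.78 and 9.45. The uninduced NOD1 arrays were low except for 1 at 9.46, and the DOX arrays ranged from level with that array to 9.78. The difference with DOX in the NOD1 line, 0.53, had an unadjusted p of 0.00223 and an adjusted p of 0.497, so it did not pass, and neither did its difference from the DOX effect in the vector line (0.60, SE 0.216, adjusted p = 1.00). Against the uninduced NLRP4 line DNAJB9 was lower, at −0.55 (SE 0.153, adjusted p = 0.00821), but was not called in the deposited values (−0.39, adjusted p = 0.0652).

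In ER import and degradation, HERPUD1, a membrane protein that helps assemble the degradation complex, was 9.56, 10.12, 9.97 and 9.71 on the uninduced vector arrays. On the uninduced NOD1 arrays it was 10.29, 10.64, 10.45 and 10.70. With DOX it was 9.61, 9.62, 9.87 and 9.93 on the vector arrays and 10.58, 10.19, 10.44 and 10.26 on the NOD1 arrays. The lines did not overlap in either condition, although the arrays of a group were spread more widely than those of HSPA5. The change was 1.60-fold without DOX (0.68, SE 0.126, adjusted p = 0.000242) and 1.53-fold with DOX (0.61, adjusted p = 0.000654). SEC61B, a subunit of the translocon through which proteins enter the ER, was 10.39, 10.48, 10.56 and 10.57 on the uninduced vector arrays and 10.82, 11.13, 10.67 and 11.06 on the uninduced NOD1 arrays. Its change was 0.42 (SE 0.0948, adjusted p = 0.00167) without DOX and 0.27 (adjusted p = 0.0383) with DOX. The former call was lost with centred arrays and the latter in 12 of 16 alternative fits. SEL1L, the adaptor of the HRD1 ubiquitin ligase, was at −0.12 (adjusted p = 0.359) and lower with DOX at −0.25 (adjusted p = 0.0414), a call lost in 9 of 16 alternative fits. EDEM1, which marks glycoproteins for degradation, was at −0.01 (adjusted p = 0.934).

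The sensors did not move as a group. EIF2AK3, which encodes PERK, was 9.29, 9.74, 9.37 and 9.61 on the uninduced vector arrays and 8.94, 8.83, 8.88 and 9.04 on the uninduced NOD1 arrays. With DOX it was 9.52, 9.59, 9.52 and 9.58 on the vector arrays and 9.29, 8.83, 9.21 and 9.08 on the NOD1 arrays, and the DOX-treated NLRP4 arrays, at 8.997, 9.25, 9.41 and 9.56, overlapped these. The NOD1 arrays were thus the lower ones against the vector line in both conditions. Its change was −0.58 (SE 0.117, adjusted p = 0.000569) and −0.45 with DOX (adjusted p = 0.00502), and against the DOX-treated NLRP4 line it was not called (−0.20, adjusted p = 0.234). XBP1, the transcription factor that IRE1 activates by splicing, was higher against the vector line at 0.31 (SE 0.0751, adjusted p = 0.00341) and 0.27 with DOX (adjusted p = 0.00925). Against the NLRP4 line it was at 0.10 (adjusted p = 0.364) and 0.14 (adjusted p = 0.205). The uninduced NLRP4 arrays, at 11.01, 11.08, 10.83 and 11.18, overlapped the NOD1 arrays at 11.12, 11.25, 11.03 and 11.10. The calls against the vector line were lost with centred arrays, and with DOX also with the values as deposited. A gene-level signal does not separate spliced from unspliced XBP1. ERN1 was at 0.13 (adjusted p = 0.254) without DOX and passed against the DOX-treated NLRP4 line at 0.33 (adjusted p = 0.00201), a call lost with the values as deposited. ATF6 stood between 0.04 and 0.10 in the 4 comparisons, with adjusted p-values of 0.387 to 0.787.

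**Figure D2:**
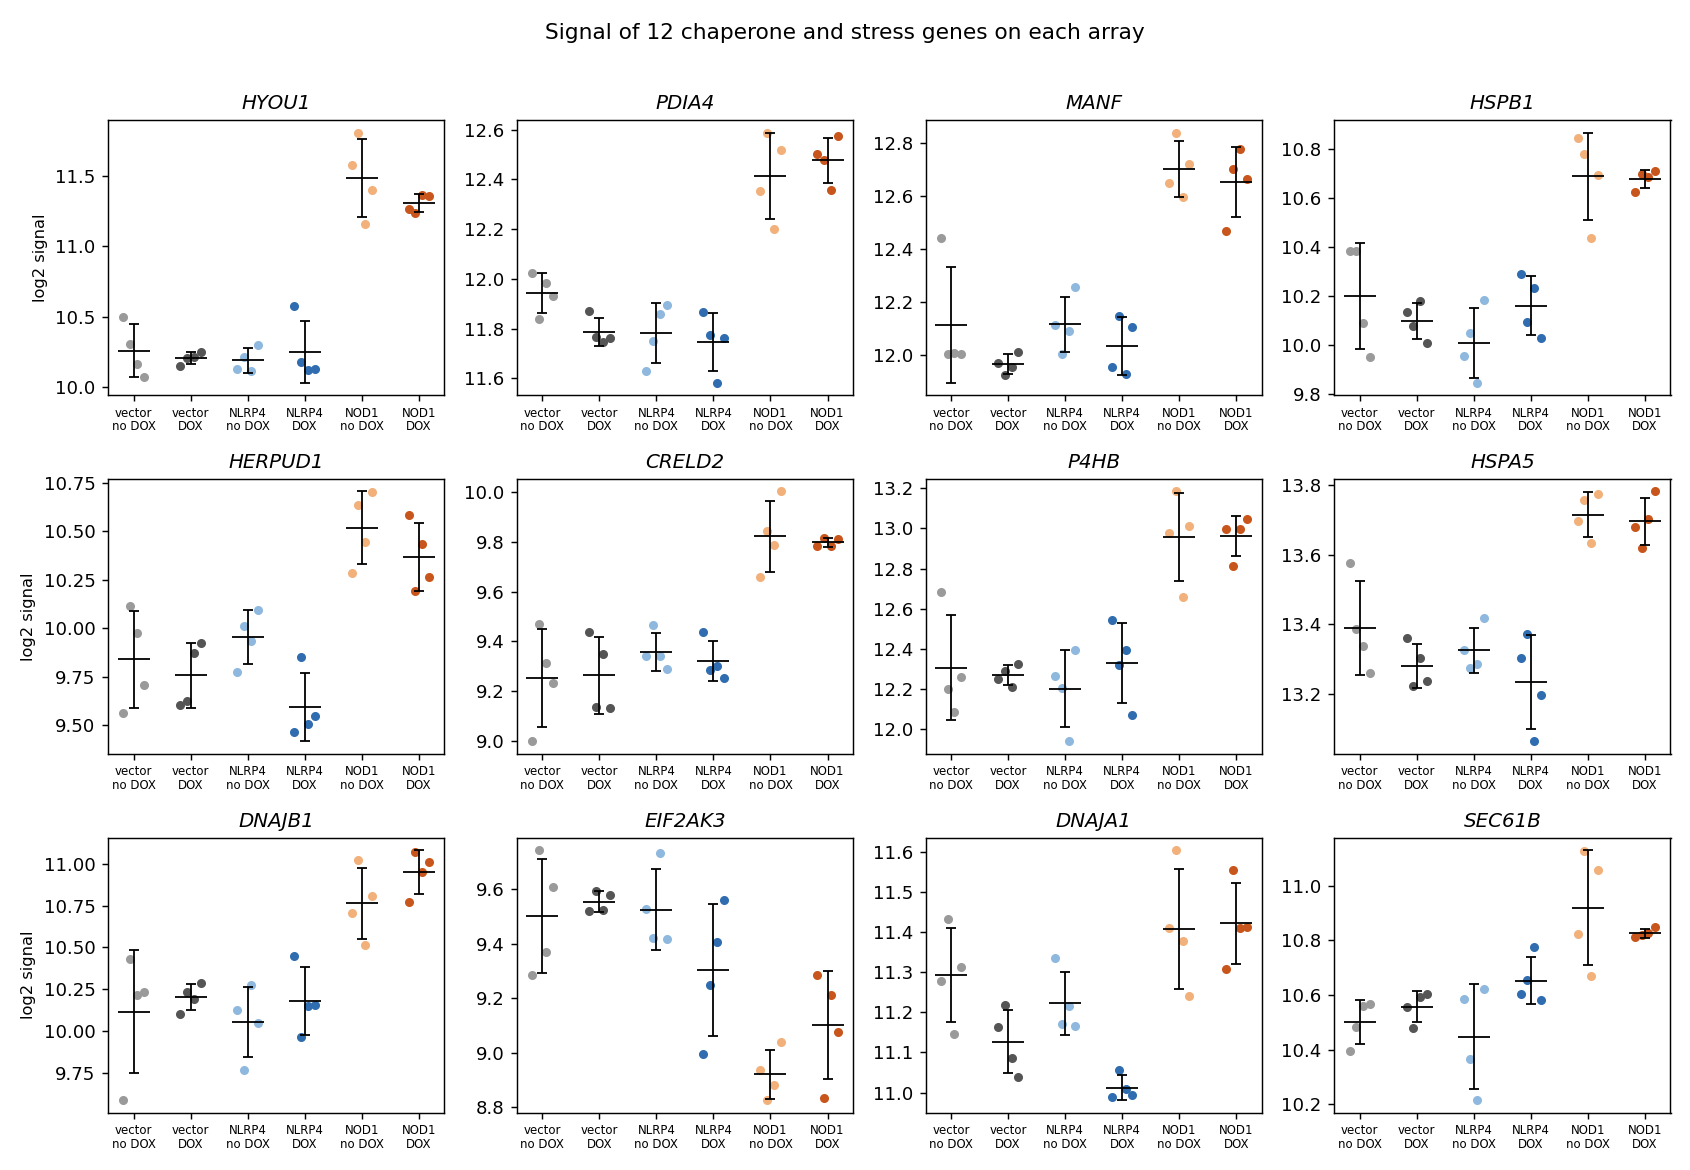
Log2 signal (y axis) on each of the 24 arrays for 12 genes with the lowest p in comparisons between lines, by group (x axis), with points for arrays, horizontal lines for means and bars for SD (n = 4). In the HYOU1 panel the 8 NOD1-line arrays lie at 11.15 to 11.81 and the other 16 at 10.07 to 10.58, and in the EIF2AK3 panel the uninduced NOD1 arrays are the lower ones.

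Among the cytosolic chaperones DNAJB1 and HSPB1 stood apart from the rest. DNAJB1 (HSP40), a J-domain partner of Hsp70 and a classical heat shock gene, was 9.59, 10.43, 10.22 and 10.23 on the uninduced vector arrays and 10.71, 11.02, 10.52 and 10.81 on the uninduced NOD1 arrays. With DOX it was 10.10, 10.23, 10.19 and 10.28 on the vector arrays and 10.77, 11.07, 10.95 and 11.01 on the NOD1 arrays. The NLRP4 line gave 10.13, 9.77, 10.27 and 10.05 without DOX and 10.45, 9.96, 10.15 and 10.15 with it. All NOD1-line arrays lay above all others, and the uninduced vector arrays were widely spread, with 1 at 9.59. The change was 1.57-fold without DOX (0.65, SE 0.145, adjusted p = 0.00155) and 1.68-fold with DOX (0.75, adjusted p = 0.000355), and the former call was lost with centred arrays (adjusted p = 0.0547). HSPB1 (HSP27), a small heat shock protein that holds unfolding proteins, was 10.38, 10.38, 10.09 and 9.95 on the uninduced vector arrays and 10.84, 10.78, 10.44 and 10.69 on the uninduced NOD1 arrays. Its change was 0.49 (SE 0.102, adjusted p = 0.000814) and 0.58 with DOX (adjusted p = 0.000125), with no overlap in either.

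The abundant cytosolic Hsp70 and Hsp90 genes differed little. HSPA8, the constitutive Hsp70, was 15.31, 15.30, 15.28 and 15.21 on the uninduced vector arrays and 15.32, 15.31, 15.30 and 15.42 on the uninduced NOD1 arrays, a change of 0.06 (adjusted p = 0.553). It was called higher in the DOX-treated NOD1 than in the DOX-treated NLRP4 line, a call lost in 11 of 16 alternative fits. HSP90AA1, the stress-inducible Hsp90, was 15.05, 14.89, 15.02 and 15.06 on the vector arrays and 14.87, 14.65, 14.91 and 14.89 on the NOD1 arrays. These arrays overlapped slightly, and the change was −0.17 (adjusted p = 0.0665) without DOX and −0.21 (adjusted p = 0.0207) with DOX, where HSP90AA1 passed, except in the values as deposited, with centred arrays and without DOX-treated NOD1 array 4. Against the DOX-treated NLRP4 line HSP90AA1 was called lower too. That call was lost in 11 of 16 alternative fits, and in 1 more, with centred arrays, the change turned to 0.14 (adjusted p = 0.557). HSP90AB1 stood at −0.001 (adjusted p = 0.992), and HSPH1, the cytosolic relative of HYOU1, at −0.07 (adjusted p = 0.546). The HSPH1 arrays were 13.37, 13.37, 13.31 and 13.45 in the uninduced vector line and 13.40, 13.15, 13.40 and 13.26 in the uninduced NOD1 line, with overlap. The mean signals of HSPA8, HSP90AA1 and HSP90AB1 stood at percentile 99.6 of all genes or above, and the part of signal compression at this brightness was not tested.

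DNAJA1, a J-domain partner of HSPA8, passed with DOX. It was 11.16, 11.22, 11.09 and 11.04 on the DOX-treated vector arrays, 10.99, 11.06, 11.01 and 10.99 on the DOX-treated NLRP4 arrays and 11.31, 11.55, 11.41 and 11.41 on the DOX-treated NOD1 arrays. The NOD1 arrays were apart from both others, with changes of 0.30 (SE 0.0804, adjusted p = 0.00752) and 0.41 (adjusted p = 0.000423). The call against the vector line was lost in the values as deposited and with centred arrays. Without DOX it stood at 0.12 (adjusted p = 0.343). BAG3, a co-chaperone that links Hsp70 to autophagy, was at 0.22 (adjusted p = 0.122) against the vector line and passed against the uninduced NLRP4 line at 0.33 (adjusted p = 0.0139), a call lost without array 1 of either group. CHORDC1, an Hsp90 co-chaperone, was lower at −0.37 (adjusted p = 0.0359), a call lost in 9 of 16 alternative fits, and at −0.44 with DOX (adjusted p = 0.0124), a call lost with centred arrays and without DOX-treated NOD1 array 4. HSF1 itself was higher by 0.23 (SE 0.0733, adjusted p = 0.021) without DOX, a call lost in 6 of 16 alternative fits, and at 0.16 (adjusted p = 0.122) with it. The mitochondrial chaperonin genes HSPD1 and HSPE1, which encode the cage and its lid, stood at −0.09 (adjusted p = 0.297) and 0.15 (adjusted p = 0.325) against the uninduced vector line. HSPE1 passed against the NLRP4 line, at 0.26 (adjusted p = 0.0498), a call lost in 13 of 16 alternative fits, and at 0.39 with DOX (adjusted p = 0.00411).

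Set side by side, 6 of 14 ER chaperone genes were higher and 1 lower in the uninduced NOD1 than in the vector line, and 2 of 9 cytosolic genes were higher and 1 lower. That is 50% and 33.3% called, beside 24.9% of all genes, so the cytosolic share lay closer to that of all genes. The median changes were 0.20 and 0.06, a difference of 0.14. With DOX 8 of 14 ER genes were higher and 1 lower and 3 of 9 cytosolic genes were higher and 2 lower, 64.3% and 55.6% called beside 25.8% of all genes, with medians of 0.27 and 0.12 and a difference of 0.15. Against the NLRP4 line the difference of medians was 0.16 without DOX and 0.08 with it, and the latter fell to 0.0065 with each array's median in the model and rose to 0.21 in the values as deposited. Between the NLRP4 and vector lines it was 0.05 in both conditions, and for the DOX effect within a line it lay between −0.03 and 0.01. The spread between arrays of a group in the same quantity, computed per array, was 0.0926 (SD pooled over the groups), and no test was made of a score over chosen genes. Without DOX the cytosolic median turned to −0.12 with centred arrays, beside −0.06 for all genes, while the ER median stayed above 0 at 0.15.

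Per array, the median deviation of the 14 ER genes from their own means was 0.16 ± 0.10 (SD, n = 4) on the NOD1 arrays without DOX and 0.19 ± 0.03 on those with DOX. In the other 4 groups it averaged from −0.10 to −0.03. For the 9 cytosolic genes it was 0.10 ± 0.05 and 0.07 ± 0.07 in the NOD1 groups and −0.06 to 0.02 in the others. The lowest uninduced NOD1 array had an ER value of 0.05, just above the highest uninduced vector array at 0.04. The ER-minus-cytosolic value of the uninduced NOD1 arrays ran from −0.05 to 0.26 and overlapped the vector arrays, at −0.08 to −0.04, and without the NOD1 array at the high end the difference of medians fell from 0.14 to 0.08. With DOX the NOD1 arrays, at 0.02 to 0.21, lay above the vector arrays, at −0.15 to −0.01, but not above the highest NLRP4 array at 0.14.

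**Figure D3:**
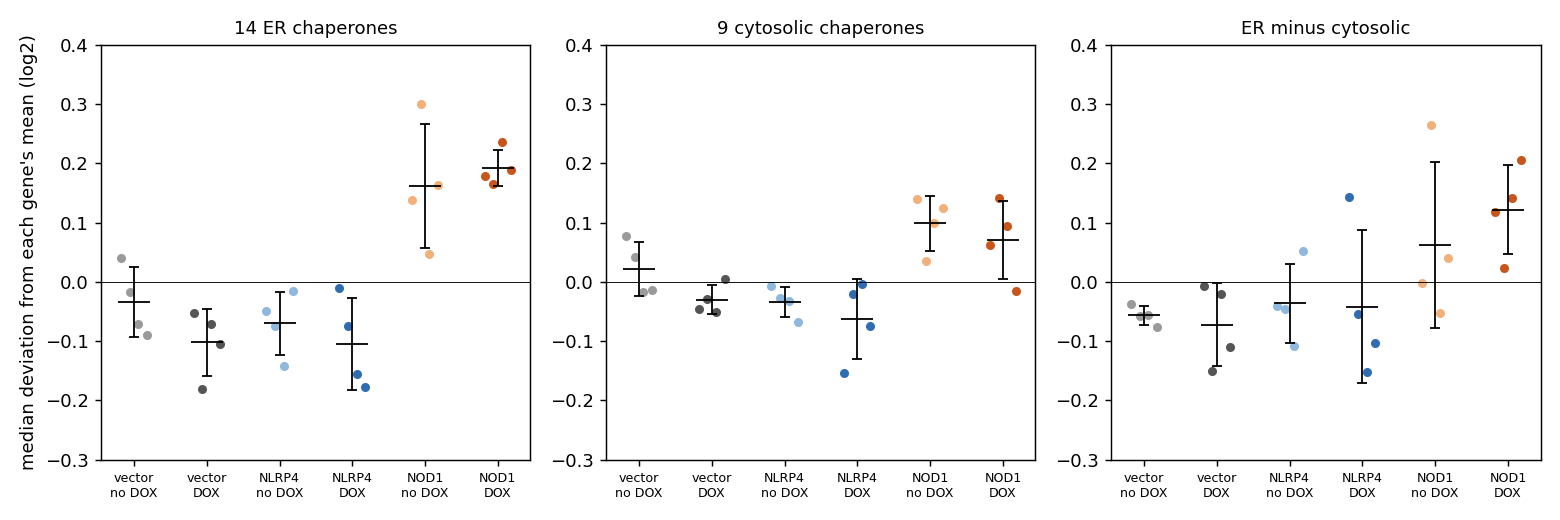
Median log2 deviation of the ER chaperone genes (left, 14 genes), the cytosolic chaperone genes (middle, 9 genes) and their difference (right) from each gene's mean over all arrays (y axis), for each array by group (x axis), with group means and SD (n = 4). The NOD1 groups average 0.16 and 0.19 for the ER genes and 0.10 and 0.07 for the cytosolic genes. Without DOX the difference overlaps between lines. With DOX the NOD1 arrays lie above the vector arrays in the difference and overlap the NLRP4 arrays.

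Within-array ratios of an ER chaperone to its cytosolic relative do not depend on a shift common to an array. They were tested for 4 family pairs over the 6 comparisons between lines, 24 two-sided exact permutation tests of 4 arrays against 4. The smallest p such a test can give is 0.029, and 13 tests reached it, 9 with a higher and 4 with a lower ratio. After Benjamini-Hochberg adjustment over the 24 tests those 13 stood at 0.0527, so 0 passed the threshold. With this smallest p, none of the 24 could pass unless more than 13 reached it. The adjusted result was thus largely set by the 4 arrays per group and says little about single pairs. The pairs were drawn from genes chosen with earlier results of these data known, so a small p is no support of its own. How often other pairs of genes separate in this way was not tested.

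The log2 ratio of HYOU1 to HSPH1, the large Hsp70-like proteins of ER and cytosol, averaged −3.12 ± 0.21 (SD, n = 4) in the uninduced vector line and −1.82 ± 0.37 in the uninduced NOD1 line. The difference was 1.30, or 2.46-fold (exact permutation p = 0.029, adjusted 0.0527), and 1.15 with DOX at the same p. For HSPA5 over HSPA8 the ratio averaged −1.88 ± 0.10 in the vector and −1.62 ± 0.05 in the NOD1 line, a difference of 0.26 without DOX and 0.29 with it, both at the smallest exact p. The Hsp90 pair, HSP90B1 over HSP90AA1, differed by 0.08 (exact permutation p = 0.143) without DOX and by 0.11 with DOX, where the arrays separated. The J-domain pair went the other way. DNAJB11 over DNAJB1 was lower by −0.73 without DOX and −0.77 with DOX, again with full separation, since DNAJB1 was higher and DNAJB11 was not called. The same 3 pairs that separated the uninduced NOD1 from the vector line also separated it from the NLRP4 line. The differences were 1.30 for HYOU1 over HSPH1, 0.29 for HSPA5 over HSPA8 and −0.80 for DNAJB11 over DNAJB1. Both comparisons use the same 4 uninduced NOD1 arrays, so the second is not independent of the first. Between the NLRP4 and vector lines the p was at least 0.143 in all 8 tests. An ER gene was thus not always the one favoured over its cytosolic relative.

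**Figure D4:**
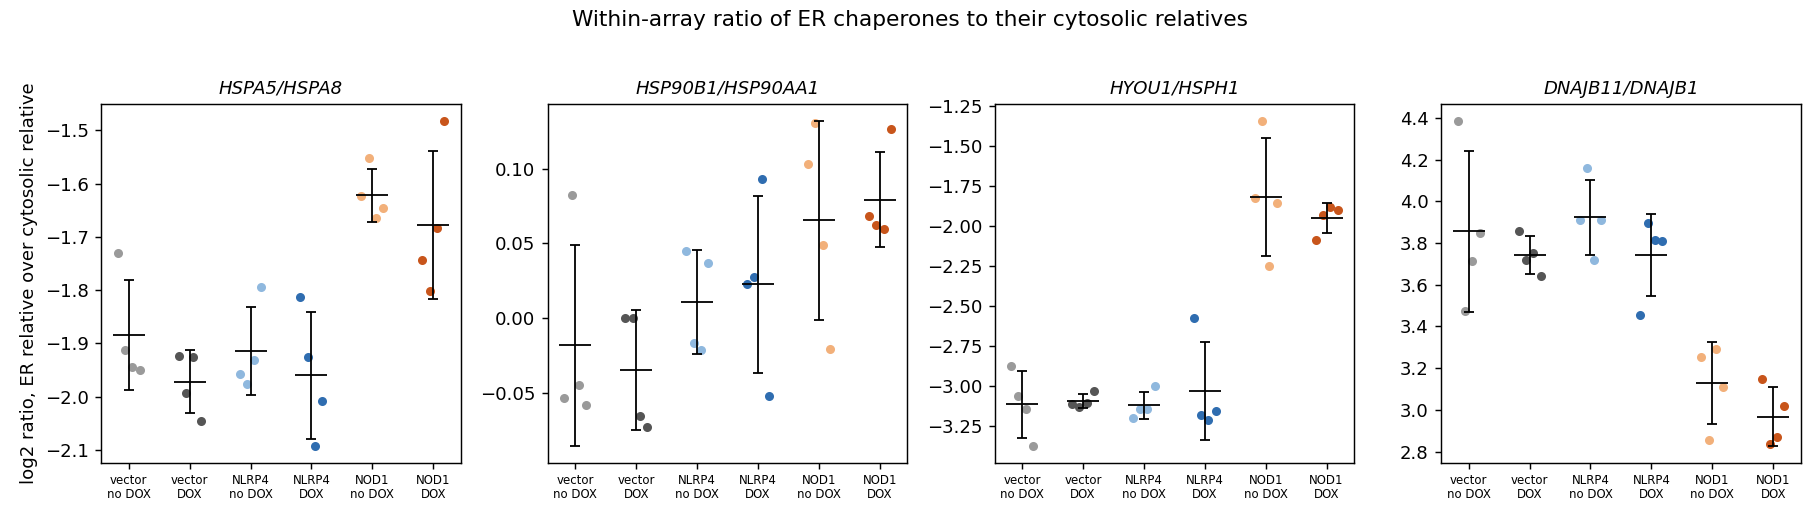
Log2 ratio of an ER chaperone to its cytosolic relative on each array (y axis) by group (x axis), 1 panel per pair, with group means and SD (n = 4); the height of a ratio depends on the probes and only differences between groups can be read. HYOU1/HSPH1 is higher by 1.30 and DNAJB11/DNAJB1 is lower, at −0.73, in the uninduced NOD1 than in the uninduced vector line.

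Size of change went with brightness as follows. The 17 genes with the higher mean signal, 11.8 to 15.3, included 6 called in the uninduced NOD1 against vector comparison, with a median absolute change of 0.17 and a maximum of 0.65. The 17 with the lower signal, 8.93 to 11.5, included 9, with a median of 0.29 and a maximum of 1.23. The part of signal compression in this was not tested.

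Between the NLRP4 and vector lines 0 of the 34 genes were called by limma without DOX, where 0.0163% of all genes were, and 1 had an unadjusted p under 0.05. That gene was XBP1, at 0.20 (SE 0.0751, adjusted p = 0.853), followed by EDEM1 at 0.17 and HSPB1 at −0.19. With DOX 0 were called beside 0.038% of all genes, and 2 had an unadjusted p under 0.05, beside 6.11% of all genes. These were ERN1 at −0.17 and EIF2AK3 at −0.25 (adjusted p = 0.782 and 0.804).

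DOX itself left the set without a call in each line. In the vector line 0 of 34 were called and 0% of all genes. By limma 0 members had an unadjusted p under 0.05, beside 3.38% of all genes. The member nearest to it was DNAJA1 at −0.17 (adjusted p = 0.999). In the NLRP4 line 0 were called beside 0.0163% of all genes, and 5 had an unadjusted p under 0.05, beside 8.05% of all genes. HERPUD1 was 9.77, 10.01, 9.94 and 10.10 on the uninduced NLRP4 arrays and 9.47, 9.85, 9.50 and 9.54 on the DOX-treated ones, a difference of −0.36 (SE 0.126, adjusted p = 0.493). Those arrays overlapped through 1 DOX array at 9.85. DNAJA1 was at −0.21 (adjusted p = 0.541), with the 4 DOX arrays below the 4 uninduced ones. In the NOD1 line, where DOX raised NOD1 itself, 0 were called beside 0.0109% of all genes. The 1 with an unadjusted p under 0.05, beside 5.77% of all genes, was DNAJB9, described above. Next were SEL1L at −0.14 and HYOU1 at −0.18. For the differences between lines in the DOX effect 0 were called in each of the 3 pairs of lines. The shares of all genes called were 0.00543%, 0.00543% and 0.0109% for NOD1 minus vector, NLRP4 minus vector and NOD1 minus NLRP4. In that order 1, 1 and 4 of the 34 had an unadjusted p under 0.05, beside 4.05%, 4.92% and 8.01% of all genes.

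The other genes of these pathways were taken from lists of the same kinds, without the 34. The share of all genes called in that comparison, 24.9% (13% higher and 11.9% lower), is the background for each count. Of 52 measured ER folding genes 18 were higher and 13 lower in the uninduced NOD1 than in the vector line, 59.6% in all, with a median of 0.13. The 4 with the lowest p were all lower: UGGT2, a glycoprotein folding sensor related to UGGT1, by −1.80 (SE 0.126, adjusted p = 6.37e-10), the ER oxidase ERO1A by −1.13, the thioredoxin-like TMX3 by −0.89 and the Hsp70-like HSPA13 by −1.09. ER folding genes thus moved in both directions, and ERO1A, which reoxidizes PDI, was lower where P4HB was higher. Of 57 degradation and translocon genes 21 were higher and 7 lower, 49.1% in all, with a median of 0.15. Among them SRPRA, a subunit of the signal recognition particle receptor, was at 0.84 (SE 0.102, adjusted p = 1.34e-06), DDOST, an oligosaccharyltransferase subunit, at 0.77, and OS9, a degradation lectin, at 0.68. The translocon partner SEC62 was lower at −1.04 (SE 0.103, adjusted p = 1.03e-07) while SEC61B was higher.

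Of 33 further signalling genes of the unfolded protein response 10 were higher and 3 lower, 39.4% in all, with a median of 0.12. ATF4, the factor translated when PERK or a related kinase is active, was at 0.79 (SE 0.138, adjusted p = 0.00012), its target DDIT3 (CHOP) at 0.89 (SE 0.157, adjusted p = 0.00014) and VLDLR at 0.56. MBTPS2, the protease that releases ATF6, was lower at −0.87 (SE 0.142, adjusted p = 5.47e-05). Of 59 further cytosolic chaperones and HSF1 targets 17 were higher and 9 lower, 44.1% in all, with a median of 0.08, including TOMM34 at 0.82, NUDC at 0.75, the Hsp70-Hsp90 adaptor STIP1 at 0.59 and the ribosome-bound DNAJC2 at −0.78. Of 18 TRiC and prefoldin subunits, which fold cytoskeletal proteins, 4 were higher and 1 lower, among them PFDN2 at 0.64 and CCT3 at 0.33. These are 27.8%, near the share of all genes, and CCT3 was not called in the values as deposited, with centred arrays or with only the arrays compared. Of 23 mitochondrial chaperones and proteases 8 were higher and 3 lower, 47.8% in all, among them the mitochondrial Hsp90 TRAP1 at 0.99 and GRPEL1 at 0.58 higher and the protease YME1L1 at −0.48 lower. The GRPEL1 call was lost with centred arrays (0.43, adjusted p = 0.051). HSPA14 stands on both this and the cytosolic list and was counted as lower in each. It belongs with the cytosolic genes, so the mitochondrial counts here and below include 1 gene that is not mitochondrial.

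With DOX the counts against the vector line were 19 higher and 12 lower for ER folding, 24 and 12 for degradation and translocon, 11 and 5 for signalling, 18 and 8 for cytosolic chaperones, 5 and 1 for TRiC and prefoldin, and 7 and 4 for the mitochondrial genes. In that order these are 59.6%, 63.2%, 48.5%, 44.1%, 33.3% and 47.8% of the genes measured, against 25.8% of all genes. With centred arrays the counts without DOX were 10 and 13, 11 and 5, 7 and 2, 9 and 10, 1 and 1, and 5 and 3 in the same order, beside 7.59% of all genes higher and 13.2% lower under that scaling. For ER folding, cytosolic chaperones and TRiC and prefoldin the higher genes then no longer outnumbered the lower ones, and over all genes they did not either. In these 6 lists limma called 0 genes between the NLRP4 and vector lines, without or with DOX, and the lists were not tested as sets.

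Among markers of other cell types few genes were called, against 24.9% of all genes. Of 13 T and NK cell genes 1 was higher, NKG7 at 0.38, and 1 lower, NCAM1 at −2.50, in the uninduced NOD1 against vector comparison, and NKG7 was not called with centred arrays. Of 11 B and plasma cell genes and 4 erythroid genes 0 were called, and of 10 epithelial and kidney genes EPCAM was lower at −1.89 (SE 0.416, adjusted p = 0.00129). The summed linear signal of the T and NK list was 4029 to 4363 in the uninduced NOD1 line and 4726 to 5193 in the uninduced vector line, and that of the B and plasma list was 2647 to 2764 and 2525 to 2806. The epithelial and kidney list summed to 3126 to 3310 in the uninduced NOD1 and 3628 to 4175 in the uninduced vector line. The T and NK and the epithelial and kidney sums were thus lower in the NOD1 line without overlap, and those of the B and plasma list overlapped. On the linear scale 1 gene can weigh heavily in such a sum. NCAM1 averaged 7.95 in the uninduced NOD1 and 10.45 in the uninduced vector line on the log2 scale, and EPCAM 7.12 and 9.01. The lower sums therefore do not show that the other genes of these lists were lower. The part of the marker genes in the chaperone results was not tested.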

How the data were processed

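Total RNA of the 24 wells was measured on Affymetrix Human Gene ST arrays. The values were deposited as log2 signals per probe set, which the authors made with RMA in oligo, per the submitters' processing notes; for their versions and the genome build, nothing is given in the sources used here. Deposited distributions differed between arrays. Of 33297 probe sets 19460 carry 1 gene symbol, and the one with the highest mean was kept for each of 18417 genes, quantile-normalized and fitted with limma 3.58.1 (R 4.3.3) as 6 group means over all 24 arrays (18 residual degrees of freedom). Every adjusted p outside the ratio tests is limma's, Benjamini-Hochberg adjusted over all genes, with 12 comparisons and a threshold of 0.05. The fit was checked on simulated data.

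The genes and lists were chosen with earlier results of these data known. Values per array are given for up to 12 genes that were called between lines without overlap, by lowest p, and for the members of the 4 ratio pairs; CANX, DNAJB9 and XBP1 were added after their values were seen; from each pathway list up to 4 called genes with the lowest p are named. Alternatives were the values as deposited, arrays centred on their medians, the dimmest genes left out, the mean of a gene's probe sets, array weights, the array median as a covariate, leaving out the 4 dimmest arrays, only the arrays compared, and leaving out each array.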

Additional observations from a re-analysis of the deposited data

Results flagged for a closer look

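In 10 of the 204 gene and group combinations the highest or lowest of the 4 arrays lay far from the others by Dixon's test at its 95% level. Chance flags about 1 in 20 groups, or 10.2 of 204, so the number is near that share.

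Among the ER genes, HYOU1 was 10.58 on 1 DOX-treated NLRP4 array and 10.12 to 10.17 on the others. MANF was 12.44 on 1 uninduced vector array and 12.01 on the others, which lies on the side of the NOD1 line. PDIA4 was 11.87 on 1 DOX-treated vector array against 11.75 to 11.77, HSP90B1 was 15.06 on 1 DOX-treated NLRP4 array against 15.00 to 15.01, and SEL1L was 10.88 on 1 uninduced NOD1 array against 11.19 to 11.23.

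Among the cytosolic and mitochondrial genes, HSPA8 was 15.42 on 1 uninduced NOD1 array against 15.30 to 15.32, and HSP90AA1 was 14.65 on another against 14.87 to 14.91. BAG3 was 9.37 on 1 DOX-treated vector array against 9.19 to 9.20. HSPD1 was 15.09 on 1 uninduced NLRP4 array against 15.01, and 14.91 on 1 DOX-treated NLRP4 array against 15.00 to 15.01.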

How the results depend on the processing

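No paired analysis was possible because every array has a label number of its own, in a separate block for each line, and no number is shared between groups. The 9 genes higher in all 4 comparisons of the NOD1 line were called in 572 of 576 alternative fits. The 4 exceptions were all with arrays centred on their medians: HSPA5 in both uninduced comparisons, PDIA4 and DNAJB1 against the uninduced vector line.

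With centred arrays 9 genes were called for the uninduced NOD1 against vector comparison and 11 with DOX, and with the values as deposited 12 with DOX, or 26.5%, 32.4% and 35.3% beside 20.8%, 22.1% and 20.4% of all genes. Leaving out 1 array gave 13 to 17 and 14 to 18 calls against the vector line and 16 to 19 and 13 to 17 against the NLRP4 line. Every comparison with 0 calls kept 0 when 1 array was left out. The ER-minus-cytosolic difference of medians became 0.27 against the uninduced vector line, 0.29 against the uninduced NLRP4 line, 0.21 against the DOX-treated NLRP4 line and 0.0725 for DOX in the NLRP4 line, each both as deposited and with centred arrays. With the array median as a covariate it was 0.0065 against the DOX-treated NLRP4 line, and without the 4 dimmest arrays 0.0406. Leaving out 1 array gave 0.08 to 0.17 against the uninduced and 0.11 to 0.20 against the DOX-treated vector line, and 0.10 to 0.19 and 0.04 to 0.15 against the NLRP4 line; the 0.04 was without DOX-treated NOD1 array 4 and the 0.15 without DOX-treated NLRP4 array 1.

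With centred arrays CANX and HSP90AA1 turned to 0.14 each against the DOX-treated NLRP4 line (limma adjusted p = 0.553 and 0.557). As deposited ERN1 turned to 0.12 for DOX in the NLRP4 line (adjusted p = 0.475) and to −0.08 for the NOD1-minus-NLRP4 difference in the DOX effect (adjusted p = 0.769). The cause was not tested. As deposited, the all-gene median itself was shifted by 0.26 for DOX in the NLRP4 line. The 4 arrays per group limit the precision.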
